A study of Mus musculus with 4 samples.

Results

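The cytochrome P450 (Cyp) genes code for heme monooxygenases that add oxygen to drugs, steroids, bile acids, vitamins and fatty acids. The liver is the main organ of these enzymes, and the family number in a symbol groups genes of related protein sequence. Methylation of CpG cytosines at a promoter is generally linked to a silent gene, whereas methylation within the body of a gene is common in genes that are transcribed. CpG methylation was examined here in 51 of 95 mouse Cyp genes. These were the genes with a symbol of the form Cyp, number, letters, number in the RefSeq annotation of mm10 (GRCm38) that held at least 3 cytosines measured in every mouse within the gene and 2000 bp on each side. Of all RefSeq genes, 26920 met the same minimum.

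DNA methylation had been measured by ERRBS, a reduced representation bisulfite assay that reads CpG-rich restriction fragments and is described by the study as combining TaqαI with MspI, in whole liver of 4 male mice aged 6 to 8 weeks on a normal diet. Mixed-1 and Mixed-2 had an undefined mixed background and B6-1 and B6-2 were C57BL/6, and the labels gave no transgene or treatment for any mouse. The strains were housed at different institutions and the B6 libraries were deeper, so strain, housing and depth cannot be told apart. The methylation level at a cytosine is the percentage of reads that stayed C after bisulfite treatment, which does not separate methylcytosine from hydroxymethylcytosine. Whole liver holds several cell types, so a level between 0 and 100% can come from a mixture of cells.

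The 51 genes held 1299 of the 1276684 cytosines that were measured in all mice. Median coverage of the Cyp cytosines was 42 and 44 reads in the Mixed mice and 67 and 61 in the B6 mice, with medians over all common cytosines of 41, 45, 64 and 60. The promoter was taken as 1000 bp on each side of every curated transcript start, and the body as the rest of the gene. A region's level was the mean percentage of its common cytosines, given where there were at least 3. This gave a promoter level for 22 genes and a body level for 46, with both for 18 and neither for Cyp4f16. Levels of a region are given below with both Mixed mice before both B6 mice, each strain in the order of its numbers, followed by the mean ± SD (n = 4 mice).

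The assay reached the families unequally. Of the 50 genes of family 2 that matched by symbol, 20 had enough cytosines, and of the 7 genes of family 3 only Cyp3a44 did. All 3 genes of family 1 and all 3 of family 26 qualified, and family 4 supplied 11 of 17. Of the other 44 Cyp genes, 29 had no common cytosine, 7 had 1 and 8 had 2. Cyp2e1, Cyp3a44, Cyp4f15 and Cyp4f16 were just inside the minimum with 3 cytosines, and Cyp2c23, Cyp2c37, Cyp11b1 and Cyp11b2 were among those just outside with 2. The letters CCGG, the site of MspI, which read the same on both strands, occurred in the promoter window of 66 of the 95 Cyp genes and of 79.1% of all RefSeq genes. The CpG observed to expected ratio of the window, which is 1 where CpG is as frequent as the base composition gives, had a median of 0.15 over the 95 genes and 0.265 over all genes. A promoter level was obtained for 23.2% of the 95 Cyp genes and for 39.3% of all genes. None of the 14 genes listed as enzymes of foreign compounds abundant in liver, among them Cyp2b10, Cyp2c29, Cyp2e1 and Cyp3a11, had a promoter level.

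The contrast among the measured genes shows in 4 stretches, each printed on the strand of its gene with the CpGs that were read in every mouse in capitals. Cyp26a1 and Cyp26c1 are neighbours that code for retinoic acid degrading enzymes. The upstream stretch of Cyp26a1 was unmethylated, at 1.20% ± 0.969 over 12 cytosines, and the start of Cyp26c1 was methylated, at 90.1% ± 3.56 over 7 cytosines. The start of Cyp2w1, an enzyme known from colon tumours, was also methylated, at 88.2% ± 2.49 over 7 cytosines. The stretch inside Cyp46a1, the cholesterol hydroxylase of brain, was unmethylated, at 2.97% ± 1.07 over 22 cytosines, and lay 18543 to 18737 bases downstream of the start.
Cyp26a1 chr19:37697172-37697471: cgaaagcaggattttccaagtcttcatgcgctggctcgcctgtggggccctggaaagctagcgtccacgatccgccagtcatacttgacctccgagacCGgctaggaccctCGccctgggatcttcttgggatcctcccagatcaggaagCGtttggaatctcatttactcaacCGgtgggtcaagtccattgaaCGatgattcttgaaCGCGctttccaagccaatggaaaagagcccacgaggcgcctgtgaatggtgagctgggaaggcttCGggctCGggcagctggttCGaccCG
Cyp26c1 chr19:37685724-37685983: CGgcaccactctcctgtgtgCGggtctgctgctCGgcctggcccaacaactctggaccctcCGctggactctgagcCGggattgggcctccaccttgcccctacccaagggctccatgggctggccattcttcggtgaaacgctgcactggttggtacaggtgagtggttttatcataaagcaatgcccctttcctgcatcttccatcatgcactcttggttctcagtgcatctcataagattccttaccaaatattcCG
Cyp2w1 chr5:139352647-139352816: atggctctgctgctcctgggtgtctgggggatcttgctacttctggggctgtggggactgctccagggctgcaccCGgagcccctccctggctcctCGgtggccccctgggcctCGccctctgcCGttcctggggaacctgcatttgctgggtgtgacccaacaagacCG
Cyp46a1 chr12:108352754-108353053: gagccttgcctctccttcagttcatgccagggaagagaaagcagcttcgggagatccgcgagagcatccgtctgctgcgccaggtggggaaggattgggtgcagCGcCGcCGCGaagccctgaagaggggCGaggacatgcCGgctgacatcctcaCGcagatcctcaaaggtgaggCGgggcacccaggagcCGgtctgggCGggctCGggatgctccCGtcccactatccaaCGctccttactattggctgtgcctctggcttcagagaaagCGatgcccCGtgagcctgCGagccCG

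Cyp promoters were mostly unmethylated. Of the 22 with a level, 17 were under 20% in every mouse and 3 were over 80% in every mouse, and Cyp11a1 and Cyp2j9 lay in between. Over all 19496 promoters measured, 78.5% were under 20% and 8.86% over 80% in every mouse. The Cyp shares of 77.3% and 13.6% were near these. The median Cyp promoter was 1.58% ± 0.203 and the median promoter of all genes 0.652% ± 0.0246.

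**Figure D1:**
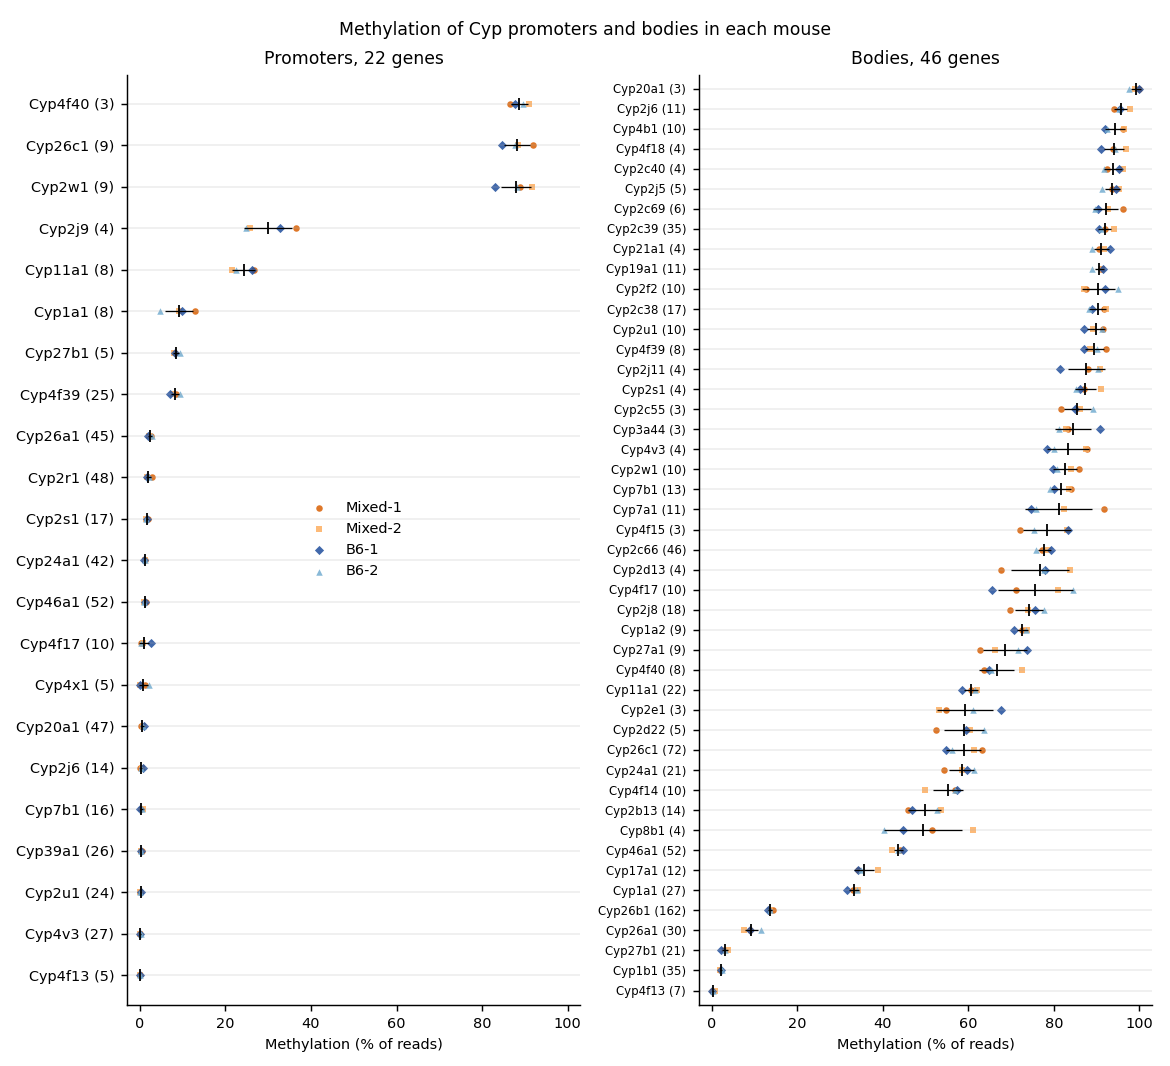
Methylation of each Cyp promoter (left, 22 genes) and body (right, 46 genes), in percent of reads, with the number of cytosines in parentheses. Each coloured symbol is 1 mouse and the black mark and line are the mean and SD of 4 mice. Promoters fall near 0% or near 90% with Cyp11a1 and Cyp2j9 between, whereas bodies range from 0.35% to 99.2%.

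The lowest promoters belonged to genes of different families. Cyp4f13 (chr17:32924688-32947415), of the fatty acid oxidizing family 4, had no methylated read among 205, 234, 266 and 245 reads summed over 5 cytosines. Were these reads independent, counting error alone would allow levels of up to 1.46, 1.28, 1.13 and 1.22%. The 5 cytosines lay within 68 bp and a read counts at each one it covers, so the true limits can be higher. Cyp4v3, another fatty acid hydroxylase, measured 0.0771, 0, 0.0788 and 0.246% (0.101% ± 0.104) over 27 cytosines. Cyp2u1, which acts on long-chain fatty acids, measured 0.116, 0.116, 0.317 and 0.128% (0.169% ± 0.0985) over 24. Every one of these levels was under 0.5%, and differences among the mice amounted to a few reads. Cyp2j6, of the arachidonic acid epoxygenases, measured 0, 0.385, 0.639 and 0.350% (0.344% ± 0.263).

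The 3 methylated promoters were 88.1% ± 2.97 in Cyp26c1, 88.7% ± 1.95 in Cyp4f40 and 87.9% ± 3.59 in Cyp2w1. Cyp26c1 (chr19:37685112-37693320) measured 91.9, 88.3, 84.7 and 87.6% over 9 cytosines on both sides of its start. Cyp2w1 (chr5:139352616-139359607) measured 88.8, 91.7, 83.1 and 88.2% over 9 cytosines, 7 of them in an exon. Both genes had both Mixed mice above both B6 mice, by less than 5 points in the mean. Of the 22 Cyp promoters, 3 separated this way, the other being Cyp39a1, and 3 the reverse way, Cyp27b1, Cyp2u1 and Cyp4v3. Each share, 13.6%, was below the share of all promoters that separated in the same direction. Cyp4f40 (chr17:32658886-32676919) rested on 3 cytosines, all exonic and near 565 bases downstream of the start, with levels of 86.5, 90.9, 87.8 and 89.6%.

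Of the intermediate promoters, that of Cyp11a1 was uneven along its length. Cyp11a1 (chr9:57998024-58027031) codes for the mitochondrial enzyme that makes pregnenolone from cholesterol, and its promoter measured 26.8, 21.6, 26.3 and 22.4% (24.2% ± 2.66) over 8 cytosines. The 4 cytosines downstream of the start, in chr9:57998144-57998199, were at 1.86, 1.53, 1.79 and 2.22% (1.85% ± 0.286), and the cytosines 225 and 311 bases upstream were between 4.72 and 24.2% in every mouse. The cytosine 617 bases upstream, at position 57997407, was at 85.7, 73.3, 88.9 and 80%, and the one 673 bases upstream was between 74.4 and 92.9%. The Cyp11a1 level was therefore an average over low cytosines near the start and 2 methylated ones farther upstream. Cyp2j9, of the same epoxygenase group as Cyp2j6, measured 36.4, 25.7, 32.8 and 24.9% (29.9% ± 5.57) over 4 cytosines within 42 bp. Cyp2j9 had the largest range over the mice of any Cyp promoter, 11.5 points, and the strains overlapped.

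Cyp promoters of low CpG ratio were found at both ends of the scale. Of the 11 Cyp promoters with a ratio under 0.4, the median level was 8.47%, and it ranged from 0% in Cyp4f13 to 88.7% in Cyp4f40. Over all 4497 promoters in that class the median was 67.9%. The 5 Cyp promoters with a ratio of at least 0.6, Cyp2r1, Cyp2u1, Cyp24a1, Cyp26a1 and Cyp46a1, lay between 0.169% and 2.35%. Cyp26c1 was the exception in the middle class, where the other 5 promoters were under 2%. As a description over promoters that share libraries and base composition, Spearman's rho between ratio and level was -0.38 over the 22 Cyp promoters and -0.639 over all promoters.

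Bodies of Cyp genes covered the whole scale. Of the 46 with a level, 18 were over 80% and 5 under 20% in every mouse, beside 40.1% and 11.1% of all 16713 bodies measured. The Cyp shares were 39.1% and 10.9%. The median Cyp body was 74.9, 82.6, 78.2 and 77.6% (78.3% ± 3.18) and the median over all genes 78.1% ± 0.524. Among the cytosines of the bodies, the 404 in introns had a mean of 67.8% ± 0.641 and the 394 in exons 33.0% ± 0.857, where Cyp26b1 alone supplied 142 exonic cytosines. The 141 body cytosines in repeats of the reference averaged 81.9% ± 0.718, and the 657 outside repeats 43.9% ± 0.747.

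The highest bodies were those of Cyp20a1, Cyp2j6 and Cyp4b1. Cyp20a1, an enzyme without an assigned substrate, measured 100, 99, 100 and 97.6% (99.2% ± 1.13) over 3 cytosines, and Cyp2j6 measured 94.1, 97.8, 95.6 and 95.2% (95.7% ± 1.53) over 11. Cyp4b1, which oxidizes fatty acids and aromatic amines, measured 96.2, 96.3, 92 and 92.5% (94.2% ± 2.31) over 10. The levels stayed within about 5 points over the mice in each of them. The lowest bodies were 0.35% ± 0.328 in Cyp4f13, 2.13% ± 0.234 in Cyp1b1 and 3.09% ± 0.676 in Cyp27b1, and they came from 1 unmethylated window in each gene.

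**Figure D2:**
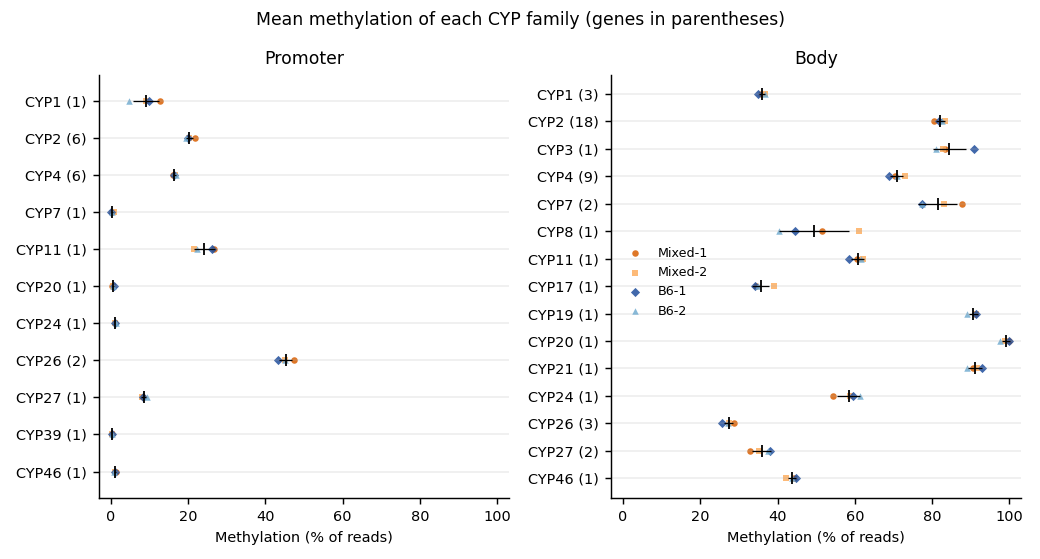
Mean methylation of the promoters (left) and bodies (right) of each Cyp family in percent of reads, each gene weighted equally, with the number of genes in parentheses. Coloured symbols are mice and the black mark and line are the mean and SD of 4 mice. Families 1, 17, 26 and 27 have the lowest bodies and family 26 the highest promoter mean.

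The mean over all gene bodies was 67.1% ± 0.342. By family, the mean body level was above it in family 2, near it in family 4 and below it in families 1, 26 and 27. Low windows of Cyp1a1, Cyp1b1, Cyp26b1 and Cyp27b1 lay at, near or upstream of annotated starts, as given below. The part of such windows and of repeats in the family means was not tested. The 18 bodies of family 2 averaged 82.1% ± 1.19, with a lowest gene of 49.8% in Cyp2b13, and the 9 bodies of family 4 averaged 70.8% ± 1.7. Family 26 averaged 27.3% ± 1.28 over 3 genes, family 1 36.0% ± 0.825 over 3 and family 27 35.8% ± 2.39 over Cyp27a1 and Cyp27b1. Within families 1 and 27 the genes differed more than the mice: Cyp27a1 was 68.6% ± 5.07 and Cyp27b1 3.09% ± 0.676, and in family 1 Cyp1a2 was 72.6% ± 1.32 and Cyp1b1 2.13% ± 0.234. In family 7 they did not, with Cyp7a1 at 81.2% ± 7.79 and Cyp7b1 at 81.7%. Promoters of family 2 averaged 20.3% ± 0.938 over 6 genes, of which Cyp2w1 and Cyp2j9 had means over 2%, and those of family 4 16.5% ± 0.368 over 6, of which Cyp4f39 and Cyp4f40 had means over 1%.

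Promoters were lower than bodies in 12 of the 18 genes with both levels, and higher in 2, at a difference of at least 10 points and an adjusted p under 0.05 by limma on the difference within each mouse. Over all 11324 genes with both levels, 83.2% were called lower and 3.95% higher, beside 66.7% and 11.1% of the Cyp genes. Among the 12 called lower was Cyp1a1, whose body included 17 cytosines upstream of its main start. Those were at 1.94% ± 0.175, below the Cyp1a1 promoter level of 9.13%. The median difference was -50.0 points over the 18 Cyp genes and -71.2 points over all genes. The largest was in Cyp20a1, where the promoter was lower by 98.5 points (SE 0.563, limma adjusted p = 6.75e-09), in 4 of 4 mice. Its promoter measured 0.274, 0.646, 0.909 and 0.627% (0.614% ± 0.261) over 47 cytosines, whereas its body rested on 3 cytosines in a window where 42.3% of the 50-base stretches recurred in the bisulfite-converted genome. Cyp2j6, with 18.5% of stretches recurring in its body window, followed with 95.3 points (SE 0.666, limma adjusted p = 7.76e-09), Cyp2u1 with 89.7 points (SE 0.963, limma adjusted p = 1.88e-08), Cyp2s1 with 85.7 points (SE 1.11, limma adjusted p = 3.51e-08) and Cyp4v3 with 83.3 points (SE 2.04, limma adjusted p = 4.73e-07). Each of these 5 genes had a promoter under 3% and a body over 78% in every mouse.

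The promoter was the more methylated region in Cyp26c1 and Cyp4f40. In Cyp26c1 it exceeded the body by 29.2 points (SE 0.877, limma adjusted p = 1.16e-06), and in Cyp4f40 by 22.0 points (SE 1.13, limma adjusted p = 1.32e-05), in 4 of 4 mice each. Cyp27b1 and Cyp2w1 had promoters higher by 5.38 points (SE 0.546, limma adjusted p = 2.86e-04) and 5.36 points (SE 1.08, limma adjusted p = 0.00537), and Cyp26a1 a promoter lower by 6.95 points (SE 0.652, limma adjusted p = 2.01e-04), all under the 10 point minimum. With only the 1000 bp upstream of a start as promoter, 9 Cyp genes had both levels, 6 were called lower and 0 higher, Cyp26c1 and Cyp4f40 had no promoter level, and the call for Cyp11a1 was lost. In Cyp4f13 both regions were near 0, with a difference of 0.35 points (SE 0.408, limma adjusted p = 0.444).

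**Figure D3:**
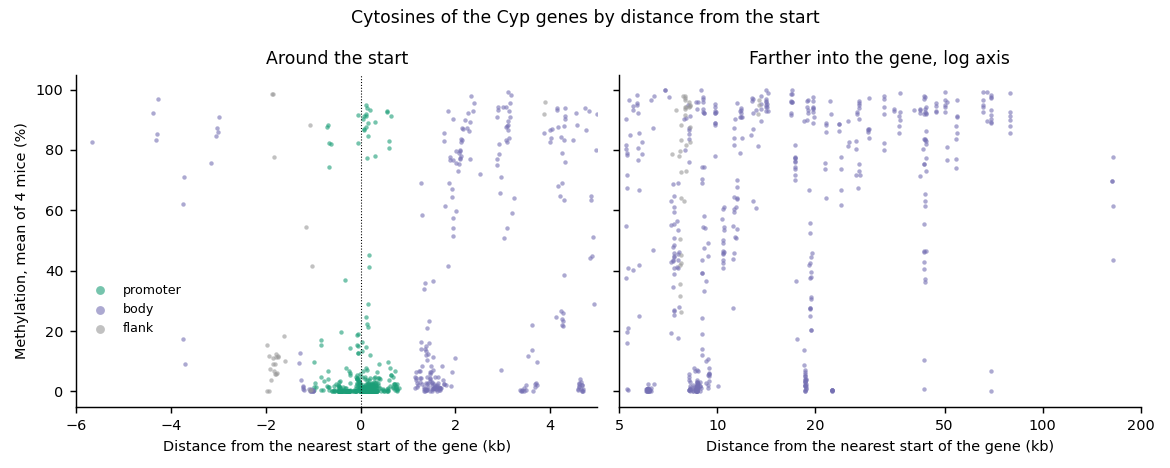
Methylation of 1294 cytosine and gene pairs, as the mean of 4 mice in percent, against the distance in kb from the nearest curated start of the gene (left, linear axis) and farther into the gene (right, log axis). The other 22 pairs, in Cyp19a1 and Cyp2c39, lie upstream of the plotted range. Cytosines within 1000 bp of a start are mostly near 0%, and low groups recur at several distances inside genes.

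In most of the genes that were read near a start, the cytosines there were low. Of the 51 genes, 26 had no common cytosine in the promoter window. The levels by distance were not computed over all genes. With each gene weighted equally, cytosines in the 500 bases before a start had a mean of 10.2% ± 1.16 over 14 genes, of which 12 were under 20%. Those in the 500 bases after it had 14.6% ± 0.537 over 20 genes, of which 16 were under 20%. Between 2000 and 5000 bases the mean was 68.6% ± 0.816 over 17 genes, with 1 gene under 20%, and beyond 10000 bases 75.5% ± 1.19 over 28 genes, again with 1.

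The retinoic acid degrading enzymes of family 26 held 353 of the cytosines and showed 3 patterns. Cyp26a1 (chr19:37697738-37701536) was low in each part that was read. The upstream flank in chr19:37695824-37696221 measured 7.36, 10.2, 9.52 and 8.14% (8.81% ± 1.30) and the promoter 2.67, 2.09, 1.81 and 2.81% (2.35% ± 0.477). The body measured 8.92, 7.69, 9.08 and 11.5% (9.29% ± 1.58), and no common cytosine of the gene lay beyond position 37699342. The start of the uncharacterized gene Gm32342 lay within 1000 bp of its promoter cytosines. In Cyp26c1, the neighbouring gene upstream, the level went from 93.9, 90, 85.3 and 91.1% (90.1% ± 3.56) at the start to 83.4, 76.8, 74.6 and 74.4% (77.3% ± 4.24) over 26 cytosines near 2087 bases. It was 58.8, 59.0, 50.3 and 59.0% (56.8% ± 4.36) near 5263 bases and 52.4, 52, 45 and 45% (48.6% ± 4.14) over 46 cytosines at the end of the gene. Mean levels of the 4 successive windows thus stepped down along Cyp26c1.

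Cyp26b1 (chr6:84571414-84593908) had no common cytosine in its promoter window, and its 162 body cytosines ran from unmethylated to methylated. The 5 windows with median distances of 3542 to 9390 bases from the curated start were between 0.530% and 5.52%, among them chr6:84584921-84585633 at 2.04, 1.83, 1.79 and 1.48% (1.78% ± 0.233) over 58 cytosines. A RefSeq model transcript and a GENCODE transcript of Cyp26b1 each start within the lowest of them, chr6:84587544-84587762, and GENCODE starts lay 477 and 1443 bp from 2 others. Near 16906 bases, 8 cytosines were at 94.0, 97.4, 95.5 and 95.4% (95.6% ± 1.38), and near 21616 bases, 6 were at 78.2, 82.4, 79.8 and 77.6% (79.5% ± 2.14). Between these methylated windows lay 18 cytosines at 39.6, 34.8, 36.5 and 39.4% (37.6% ± 2.33), most of them exonic, of which 16 are in the following stretch with the read CpGs in capitals.
Cyp26b1 chr6:84574300-84574599: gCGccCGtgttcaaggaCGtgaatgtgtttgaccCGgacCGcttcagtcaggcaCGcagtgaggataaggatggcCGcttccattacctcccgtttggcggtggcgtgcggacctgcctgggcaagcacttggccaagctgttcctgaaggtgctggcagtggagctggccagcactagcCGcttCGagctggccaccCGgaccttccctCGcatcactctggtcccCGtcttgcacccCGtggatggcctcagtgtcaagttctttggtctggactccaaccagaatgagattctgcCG

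**Figure D4:**
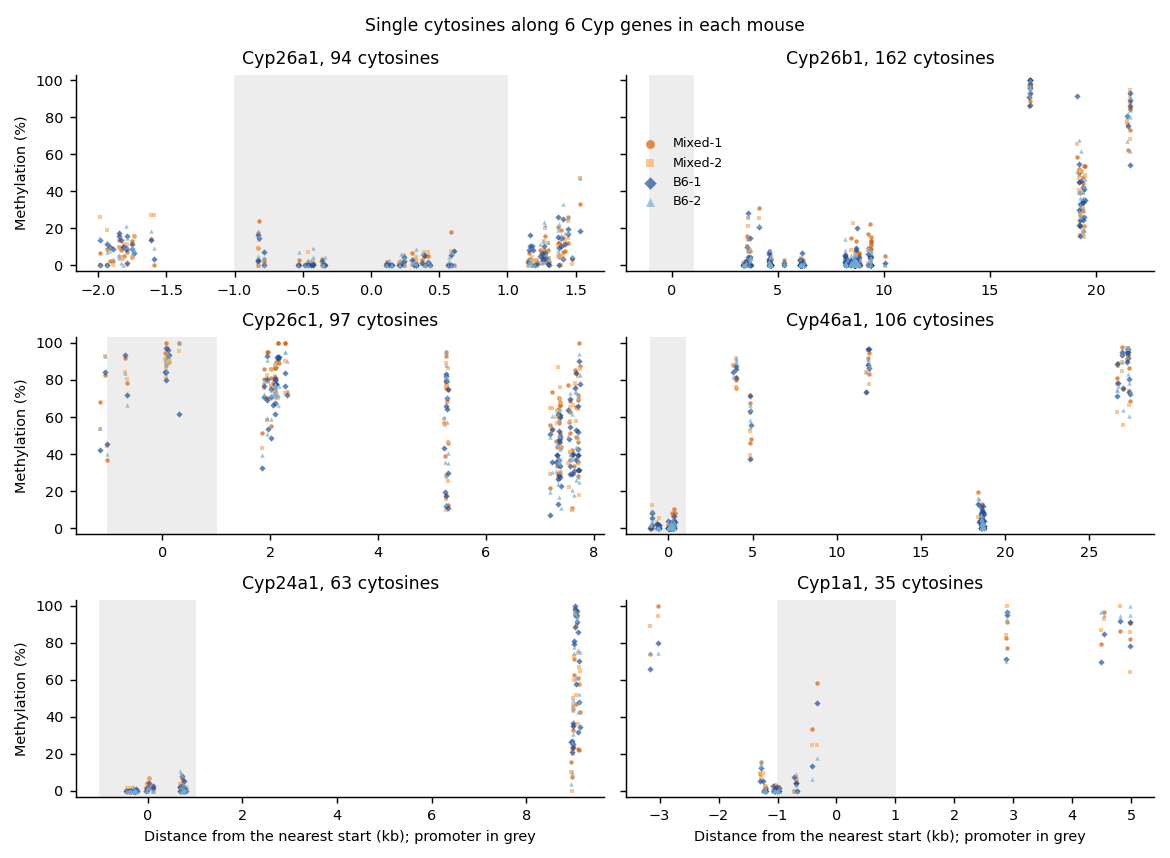
Methylation of single cytosines, in percent of reads in each mouse, against the distance in kb from the nearest start for 6 Cyp genes. The grey band is the promoter of 1000 bp on each side. Cyp26a1 is low where it was read, Cyp26c1 is high at the start and lower at the end, and Cyp46a1 has an unmethylated group near 18616 bases between methylated ones.

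Genes of bile acid and sterol turnover had 3 promoters with a level, and these were unmethylated. Cyp7b1, which hydroxylates oxysterols in the alternative bile acid pathway, measured 0.202, 0.692, 0 and 0.404% (0.324% ± 0.295) over 16 cytosines. Cyp39a1, which acts on an oxysterol made in brain, measured 0.403, 0.321, 0.285 and 0.265% (0.319% ± 0.0607), with the start of Slc25a27 within 1000 bp. Cyp46a1 (chr12:108334268-108362234) measured 1.37, 1.03, 1.13 and 0.876% (1.10% ± 0.208) over 52 cytosines. All of them were under 2% in every mouse. The bodies of the group had a median of 68.6% over 5 genes, and none of the 5 was under 20% or over 80% in every mouse.

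Cyp46a1 alternated along its body. Windows near 3998, 11866 and 27255 bases from the start averaged 84.6%, 87.8% and 84.1%. A window of 4 cytosines near 4870 bases was intermediate, at 58.4, 47.8, 56.7 and 61.0% (56% ± 5.73). The window chr12:108352732-108353059 between the last 2 of the methylated ones, whose central part is printed above, measured 3.63, 3.09, 4.87 and 3.1% (3.67% ± 0.838) over 25 cytosines, 9 of them exonic. The nearest start of a GENCODE transcript model, also of Cyp46a1, was 508 bp away, and the nearest RefSeq start was 6647 bp away. The gene's body level of 43.7% ± 1.07 therefore joined methylated windows with an intermediate and an unmethylated one.

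Cyp7a1, the rate-limiting enzyme of bile acid synthesis, Cyp8b1, which sets the share of cholic acid, and the mitochondrial sterol hydroxylase gene Cyp27a1 had body levels only. Cyp7a1 (chr4:6265612-6275632) measured 91.7, 82.4, 74.7 and 75.9% (81.2% ± 7.79) over 11 exonic cytosines, and Cyp27a1 (chr1:74713148-74737897) 62.7, 66.3, 73.8 and 71.7% (68.6% ± 5.07) over 9. Cyp8b1 (chr9:121914356-121916305) is a gene of a single exon, and 4 cytosines in it measured 51.6, 61.1, 44.6 and 40.3% (49.4% ± 9.1). Cyp8b1, Cyp4f17 and Cyp7a1 had the widest ranges over the mice of all Cyp bodies, at 20.9, 19.0 and 17 points. In Cyp4f17 the levels were 71.3, 81.1, 65.6 and 84.6%, and the strains overlapped. The 4 cytosines of Cyp8b1 are the capitals in this stretch of the gene's strand.
Cyp8b1 chr9:121914944-121915025: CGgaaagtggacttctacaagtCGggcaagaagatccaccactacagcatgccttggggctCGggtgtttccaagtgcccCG

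The vitamin D genes had 3 unmethylated promoters. Cyp2r1, which activates vitamin D in liver, measured 2.73, 1.57, 1.62 and 2.04% (1.99% ± 0.534) over 48 cytosines. Cyp27b1, which makes the active hormone in kidney, measured 8.22, 8.04, 8.23 and 9.37% (8.47% ± 0.610) over 5. Cyp24a1, which inactivates the hormone, measured 1.13, 1.11, 0.983 and 1.21% (1.11% ± 0.0935) over 42, and 31 of its cytosines were within 1000 bp of the start of Pfdn4. The other 11 averaged 0.161%. The order of Cyp24a1, Cyp2r1 and Cyp27b1 by promoter mean was the same in each mouse, with Cyp27b1 more than 5 points above the others. In Cyp27b1 (chr10:127048246-127054884) the low level continued into the body, where 21 cytosines in chr10:127049593-127049834 measured 2.93, 3.95, 2.31 and 3.16% (3.09% ± 0.676), with a RefSeq model start of the gene 489 bp away, and the downstream flank in chr10:127056416-127056513 measured 91.1, 91.7, 92.6 and 91.2% (91.6% ± 0.671).

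The body of Cyp24a1 (chr2:170482957-170497145) was read in 1 CpG-dense window 9024 bases from the start, at 54.3, 58.6, 59.7 and 61.3% (58.5% ± 3) over 21 cytosines. Its CpG ratio was 0.78, above that of either promoter window of the gene, which had 0.66 each. Single cytosines of the window ranged widely in every mouse, as the profiles show, and the read CpGs are capitals in the stretch below.
Cyp24a1 chr2:170488000-170488200: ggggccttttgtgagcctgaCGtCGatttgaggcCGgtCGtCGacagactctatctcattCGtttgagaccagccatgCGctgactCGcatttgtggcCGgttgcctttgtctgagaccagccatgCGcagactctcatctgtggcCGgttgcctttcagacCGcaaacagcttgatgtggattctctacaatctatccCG

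Of the steroid hormone genes, Cyp11a1 was the only one with a promoter level. Bodies of this group differed: Cyp19a1, the aromatase that makes estrogen, measured 90.7% ± 1.16, Cyp21a1, of adrenal steroid synthesis, 91.1% ± 1.72, and Cyp11a1 60.7% ± 1.61. Cyp17a1, needed for androgens, was lower at 34.3, 39, 34.3 and 35.0% (35.6% ± 2.25) over 12 cytosines. Of the 12 Cyp17a1 cytosines, 6 were within 1000 bp of the start of Gm41857, and without them the level was 47.3%.

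Among the enzymes of foreign compounds abundant in liver, levels were obtained for 3 bodies. Cyp1a2, which oxidizes caffeine and aromatic amines, measured 72.5, 73.6, 70.8 and 73.6% (72.6% ± 1.32) over 9 cytosines. Cyp2f2, known for bioactivating naphthalene, measured 87.6, 87, 91.9 and 95.1% (90.4% ± 3.81) over 10. Cyp2e1, the ethanol oxidizing enzyme, measured 54.9, 53.1, 67.6 and 61.2% (59.2% ± 6.59) over 3 cytosines in an intron. Cyp2e1 was the least methylated of the 3, and its mice spread over 14.5 points.

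Inducible and mostly extrahepatic enzymes included both promoter classes. Cyp2s1, of epithelia, measured 2.01, 1.46, 1.66 and 1.41% (1.63% ± 0.272) over 17 promoter cytosines, in contrast to Cyp2w1. Cyp1b1 (chr17:79706940-79715061), which oxidizes estrogens and polycyclic hydrocarbons, had no promoter level but 35 cytosines in chr17:79713123-79713725 at 1.93, 1.94, 2.31 and 2.36% (2.13% ± 0.234). A GENCODE start of Cyp1b1 lay within that window, whereas the nearest RefSeq start was 1336 bp away. Cyp1b1 was thus counted as a low body although one annotation places a start inside the window.

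Cyp1a1 (chr9:57687928-57703824), the enzyme induced through the aryl hydrocarbon receptor, had an unmethylated region upstream of its main start. The 25 cytosines in chr9:57696323-57697284 measured 5.38, 4.38, 4.37 and 2.83% (4.24% ± 1.05), and 17 of them, from 1290 to 1004 bases upstream, measured 1.94% ± 0.175. These 17 counted as body because the RefSeq gene begins farther upstream. The 8 nearer ones gave the promoter level of 12.8, 9.05, 9.92 and 4.79% (9.13% ± 3.30), which rested on 2 raised cytosines, at 33.3, 25, 13.7 and 6.67% 420 bases upstream and at 58.3, 25, 47.2 and 17.8% 329 bases upstream, at position 57697284. With a minimum of 20 reads the promoter of Cyp1a1 was 5.14%. Exonic windows at 2890 and 4818 bases into the gene were at 87.3% and 88.1%, and 47.2% of the stretches in the first of these recurred in the converted genome. The first 300 bases of the upstream region are printed with the read CpGs in capitals. They held the letters GCGTG, the core of the element that this receptor binds, 4 times when both strands were searched. At least 1 match was found in 32.4% of 32851 RefSeq promoters of 300 bases, and as many in 1.33%. These promoters were not matched for CpG content. The stretch held 19 CpGs and the core itself holds a CpG, so the shares cannot test for enrichment of the element.
Cyp1a1 chr9:57696323-57696622: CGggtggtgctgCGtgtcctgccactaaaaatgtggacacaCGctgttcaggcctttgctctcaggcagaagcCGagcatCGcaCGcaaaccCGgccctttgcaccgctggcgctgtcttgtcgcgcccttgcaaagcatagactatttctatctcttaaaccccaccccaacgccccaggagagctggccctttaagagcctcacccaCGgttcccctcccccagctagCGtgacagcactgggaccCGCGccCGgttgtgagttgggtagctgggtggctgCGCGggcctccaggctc

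Fatty acid enzymes had 7 promoters with a level, of which 6 were under 20% in every mouse, and 10 bodies with a median of 86.6%. Beside Cyp4f13, Cyp4v3, Cyp2u1, Cyp2j6 and Cyp2j9 above, Cyp4x1 measured 1.25, 0, 0 and 2.11% (0.839% ± 1.03) over 5 cytosines within 1000 bp of the start of the antisense gene Cyp4x1os, and Cyp4f17 0.270, 0.618, 2.67 and 0.299% (0.964% ± 1.15) over 10. Cyp4f39, outside the list and known for skin lipids, measured 8.54, 7.83, 7.14 and 9.43% (8.24% ± 0.98) over 25. The cluster of Cyp4f genes on chromosome 17 thus held unmethylated, weakly methylated and methylated promoters. The body of Cyp4f13 was 7 exonic cytosines within 45 bp near the end of the gene. The nearest start of a GENCODE transcript model, also of Cyp4f13, was 662 bp from them. Of the 50-base stretches across these cytosines, 42.4% occurred elsewhere in the bisulfite-converted genome.

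Read placement was least certain outside the promoters. None of the 26 Cyp windows with promoter cytosines held a 50-base stretch that recurred in the genome after conversion of C to T, whereas 28 of 81 other windows did, with up to 78.7% in Cyp2c38. That window and one of Cyp3a44, with 72.1%, lay wholly in repeats of the reference. Cyp2b13, a gene known from female liver, had 14 intronic cytosines in chr7:26071867-26072005, where 7.86% of stretches recurred, at 45.9, 53.6, 47 and 52.7% (49.8% ± 3.89). Every one of the 14 was between 20 and 80% in the mean, and the pseudogene Rnf170-ps starts within 1000 bp. The window is short and CpG-dense, with a ratio of 0.89, and its sequence is given with the read CpGs in capitals.
Cyp2b13 chr7:26071867-26072005: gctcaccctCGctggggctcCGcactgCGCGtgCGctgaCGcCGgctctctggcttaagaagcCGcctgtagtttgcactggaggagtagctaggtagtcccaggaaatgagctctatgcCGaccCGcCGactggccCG

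The remaining bodies of families 2, 3 and 4 were mostly methylated. The 6 bodies of Cyp2c genes, which oxidize drugs and arachidonic acid, had means from 77.8% in Cyp2c66 to 93.9% in Cyp2c40, and Cyp2c38 and Cyp2c39 shared 17 cytosines because the RefSeq span of Cyp2c39 runs across Cyp2c38. Cyp2c66 had the most cytosines of them, 46, at 77.3, 78.6, 79.4 and 75.9% (77.8% ± 1.52), and 37 of these were in repeats. Read placement was uncertain in all of these bodies except that of Cyp2c55, since stretches of their windows recurred in the converted genome. The share was 47.5% in the window of Cyp2c40 and 54.3% in that of Cyp2c69. Of the Cyp2d genes, relatives of the human debrisoquine hydroxylase, Cyp2d22 measured 52.5, 60.4, 59.5 and 63.7% (59.0% ± 4.74) over 5 cytosines. Cyp2d13, annotated as a transcribed pseudogene, measured 67.7, 83.8, 78.0 and 77.6% (76.8% ± 6.7) over 4. Bodies of Cyp2j5, Cyp2j8 and Cyp2j11 were at 93.7%, 74.2% and 87.6%. Cyp3a44 was at 84.5% ± 4.27, with 3 cytosines. In family 4, Cyp4f18 was at 94.1% ± 2.36, Cyp4f15 at 78.5% ± 5.61 and Cyp4f14 at 55.2% ± 3.52. Cyp4f14 and Cyp2d22 were the least methylated of these.

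The 13 partners and regulators of Cyp enzymes, such as the reductase gene Por and the receptor gene Ppara, had 10 promoters with a level, of which 9 were under 20% in every mouse, with a median of 0.199%. As a check of the tissue, 2 of 8 hepatocyte genes had a promoter level, and 1 was under 20% in every mouse. Of 8 genes of other tissues, 1 had a promoter level and it was over 80%. These few promoters do not identify the tissue by themselves.

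Levels in the Mixed and B6 mice were compared next. By limma over all genes, 0 of 22 Cyp promoters and 0 of 46 Cyp bodies differed by at least 10 points at an adjusted p under 0.05, and 0% of all 19496 promoters and 0% of all 16713 bodies did. At an unadjusted p under 0.05 there were 0 Cyp promoters and 11 Cyp bodies, beside 5.31% of all promoters and 7.02% of all bodies. Those 11 are 23.9% of the Cyp bodies, and none passed the adjustment. An exact permutation test of 2 against 2 mice cannot give a p below 0.333. The median absolute difference between strains was 0.222 points over Cyp promoters and 2.13 points over Cyp bodies, and over all genes 0.178 and 1.35 points.

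**Figure D5:**
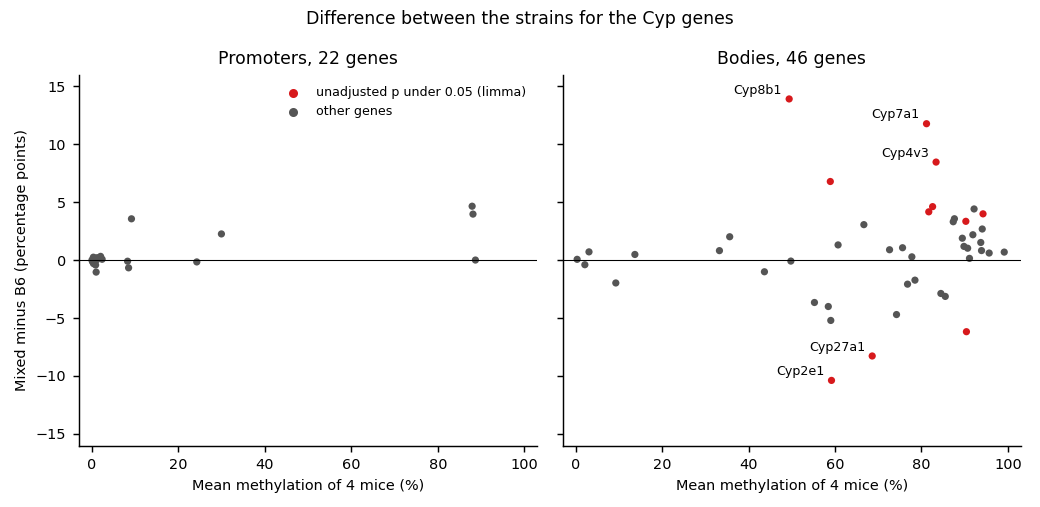
Difference between the strain means (Mixed minus B6, percentage points) against the mean of 4 mice for Cyp promoters (left, 22 genes) and bodies (right, 46 genes). Red points have an unadjusted p under 0.05 by limma, and none passed the adjustment over all genes. Promoter differences stay within 5 points, and Cyp8b1, Cyp7a1 and Cyp2e1 have the widest body differences.

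Of the 11 bodies, 8 were higher in the Mixed mice and 3 lower. The widest difference was in Cyp8b1, where the Mixed mice had 51.6 and 61.1% and the B6 mice 44.6 and 40.3% (13.9 points, limma unadjusted p = 0.0238 and adjusted p = 0.68). Cyp7a1 was also higher in Mixed (11.8 points, limma unadjusted p = 0.0277 and adjusted p = 0.691), and Cyp4v3 had the smallest p (8.45 points, limma unadjusted p = 0.00270 and adjusted p = 0.601). Cyp2e1 was lower in Mixed (-10.4 points, limma unadjusted p = 0.0205 and adjusted p = 0.675), as was Cyp27a1 (-8.28 points, limma unadjusted p = 0.0159 and adjusted p = 0.675). The strains did not overlap in any of these 5. Non-overlap with Mixed above B6 was found in 11 Cyp bodies, or 23.9%, beside 22.9% of all bodies, and the reverse in 7, or 15.2%, beside 13.5%. The B6 libraries were the deeper ones, and the part of depth in these differences was not tested.

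The difference between promoter and body was compared between the strains as well. By limma, 0 of 18 Cyp genes and 0% of all 11324 genes passed, and 2 Cyp genes, Cyp4v3 and Cyp7b1, had an unadjusted p under 0.05, beside 6.75% of all genes.

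At single cytosines, 0 of 1299 in the Cyp genes differed by at least 25 points at an adjusted p under 0.01 in a logistic model with overdispersion, beside 0.00658% of all 1276684. An unadjusted p under 0.05 was found at 36 Cyp cytosines, or 2.77%, beside 2.07% of all, and 4 of these, or 0.308%, also differed by at least 25 points, beside 0.297% of all. Fisher's exact test on pooled reads, which ignores the spread between mice, called 1, beside 0.126% of all cytosines. That cytosine was in an intron of Cyp2j8, at position 96463518 of chromosome 4, with 23.1% of 39 reads and 39.1% of 46 in the Mixed mice and 64.5% of 107 and 58.8% of 85 in the B6 mice. Its difference was -30.6 points, the unadjusted p of the logistic model 0.00231 and the adjusted p 1, while the pooled Fisher test gave an adjusted p of 0.00227. In its window, 28.7% of the 50-base stretches recurred in the genome. The other 3 were in Cyp7a1, Cyp8b1 and Cyp26c1, each higher in the Mixed mice by 28.3, 25.1 and 25.4 points. A logistic model blocked on replicate number called 0 Cyp cytosines, beside 0.012% of all.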

How the data were processed

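CpG methylation of 4 mouse livers was analysed, 2 Mixed and 2 B6, each labelled mouse being 1 replicate. The study's methods describe single-end reads of 50 cycles mapped to mm10 with BSMAP, whereas the submitters' processing notes name Bismark and SAMtools. The authors deposited, for each CpG cytosine and strand with at least 10 reads, the coverage as a count of reads and the percent of reads with C and with T, without normalization. From 60654199 to 99215153 reads were summed over the listed cytosines of a mouse, a read counting at each cytosine it covers, and read counts limit each percentage by counting error.

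Common cytosines were joined by position and strand and placed on RefSeq GRCm38. Regions were compared with limma 3.58.1 (R 4.3.3) with a mean trend, and p-values were adjusted over all genes by Benjamini-Hochberg. Cytosines were tested by logistic models of methylated and other reads, with a prior overdispersion of 1.79. Python 3.11.15, numpy 2.4.6, scipy 1.17.1, pandas 2.3.3 and matplotlib 3.10.9 were used. The models were tested on simulated data. Windows joined cytosines at most 300 bp apart. Named genes were the 6 highest and 6 lowest promoters, the 5 largest promoter to body differences each way, the 3 highest and 3 lowest bodies, the 3 widest ranges of each region and listed genes with a promoter level, and others were chosen after their values were seen. The members and lists were chosen with earlier results of these data known.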

Additional observations from a re-analysis of the deposited data

How the results depend on the processing

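The definition of the promoter moved the results most. With only the 1000 bp upstream of a start as promoter, 10 Cyp promoters kept a level, with a median of 2.15%, 9 under 20% in every mouse and 0 over 80%, and the bodies, which then took in the first bases of the gene, had a median of 58.0%. In that setting 6 of 9 genes were called with the promoter below the body and 0 above it, Cyp11a1 was no longer called at -5.02 points, and the body of Cyp20a1 was 6.53%. With a bound of 90% in place of 80%, 0 promoters were methylated in every mouse. A minimum of 20 reads gave a Cyp46a1 body of 54.7% and a Cyp24a1 body of 68.5%. Several promoters near 0 moved by over 1.5 times but stayed under 2%, among them Cyp39a1 (0.0671% with 20 reads) and Cyp4f17 (0.396% without B6-1). The Cyp2r1 promoter went from 1.99% to 3.53% with only the 1000 bp upstream. When 1 mouse was left out at a time, the median promoter was between 1.54% and 1.68%, the median body between 76.9% and 79.5%, and the calls stayed at 12 below and 2 above. The other settings tried, pooled reads, strands merged, sites near starts of other genes left out, at least 5 sites and log2 ratios, left these medians within 1 SD and the counts within 1.5 times.

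The replicate numbers did not pair the mice, with correlations of deviations of -0.0259 over promoters, 0.0114 over bodies and -0.000207 over cytosines. With the replicate number as a block, limma called 0 Cyp promoters and 0 Cyp bodies, with 1 promoter and 9 bodies at an unadjusted p under 0.05, beside 4.25% of all promoters and 6.80% of all bodies. The logistic model with the block called 0 Cyp cytosines and 153 of all, with 41 Cyp cytosines and 2.09% of all at an unadjusted p under 0.05. Fisher's exact test on pooled reads called 1 Cyp cytosine, in Cyp2j8, and the other settings for cytosines, leaving out each mouse in turn among them, called 0. Few reads and cytosines per region and 2 mice per strain limit all of these comparisons.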

Other observations

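Cyp cytosines measured in some of the mice were not used in the comparisons. Within the Cyp26b1 gene and its flanks, 226 cytosines had 10 or more reads in some mouse and 162 in every mouse, with 177 and 168 in the Mixed mice and 218 and 206 in the B6 mice. At 32 of these both B6 mice had a value and neither Mixed mouse did, and at 2 the reverse was seen. Cytosines with a value in both B6 mice and neither Mixed mouse also numbered 12 in Cyp26a1, 12 in Cyp27b1 and 10 in Cyp26c1, with 0 of the reverse in these 3 genes. Over the whole genome, 1372599 and 1329761 cytosines had 10 or more reads in the Mixed mice and 1557387 and 1528130 in the deeper B6 libraries. The share of such cytosines over all genes was not counted, and the part of depth was not tested. Reads with a base other than C or T were found at 5 and 5 Cyp cytosines in the Mixed mice and at 7 and 13 in the B6 mice, and their share was at most 5% of the reads at a cytosine.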
